A study of Arabidopsis thaliana with 16 samples.

Results

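Poly(A) RNA of the branch-forming rosette region was compared between the Arabidopsis thaliana mutants scl28 and ckx3 ckx5, lines in which, per the title of the series, rosette branching is suppressed. The comparison used 8 libraries, 4 of scl28 and 4 labelled ckx3 ckx5, and all loci that passed a filter on low counts, which were 20947 of the 33602 loci of the deposited table. The remaining 12655 loci were not tested, and 1718 of them had no count in any of the 16 libraries of the series. The same filter run on the 8 libraries alone kept 20339 loci. scl28 is labelled a knockout of SCL28, a transcription factor gene of the GRAS family. ckx3 ckx5 is labelled a knockout of CKX3 and CKX5, genes of cytokinin oxidases. The other libraries of the series, 4 of the strigolactone receptor mutant d14-7 and 4 of wild type Col-0 (WT), entered the same model and are given for orientation only. The labels name no allele for scl28 or ckx3 ckx5 and give no genetic background for the mutants.

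All plants grew under 16 h of light and 8 h of dark and were harvested between 9 and 11 in the morning, when the bolt was shorter than 1 cm. The scl28 plants were harvested 25 days after sowing, and the ckx3 ckx5, d14-7 and WT plants 23 days after sowing. Each library came from a pool of tissue of 2 to 3 plants from which leaves, roots and upper stem had been cut away. Per the labels, the 4 pools with the best RNA integrity of 5 were sequenced for each genotype. Day of harvest and genotype therefore cannot be told apart, and the labels give no hour of harvest for single pools.

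Rosette branches grow from axillary buds, whose outgrowth is held back by strigolactone and auxin and promoted by cytokinin. Cytokinin oxidases break cytokinins down, and their loss is known to raise cytokinin in shoot tissue, where type-A response regulator genes report the hormone. SCL28 is known as a target of the MYB3R factors of the cell cycle and as an activator of SIAMESE-RELATED genes, which code for inhibitors of cyclin-dependent kinases (CDK) and delay entry into mitosis. The circadian clock of plants is a loop in which the morning factors LHY and CCA1 repress genes of the afternoon and evening.

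The contrast between the mutants was broad and mostly shallow. At an adjusted p under 0.05 in the quasi-likelihood test of edgeR with Benjamini-Hochberg adjustment, 5169 loci differed, which is 24.7% of those tested. Of these, 2752 were higher in scl28 (13.1% of loci tested) and 2417 were lower in scl28 (11.5%). Among the loci called, 3050 (59.0%) differed by less than 1.5-fold. A difference of at least 2-fold was called for 951 loci (4.54%), 441 of them higher in scl28 (2.11%) and 510 lower (2.43%). Differences of at least 4-fold numbered 60 upward and 99 downward. The median log2 fold change over all loci tested was -0.004. The CPM of the 8 libraries (counts scaled to library size with TMM factors) did not overlap between the groups for 6268 loci (29.9%), among them 4676 of the called loci. Below, a log2 fold change is scl28 minus ckx3 ckx5 with its standard error (n = 4 libraries per group), an adjusted p is that of this edgeR test, and "rose", "fell", "higher" and "lower" describe scl28 relative to the libraries labelled ckx3 ckx5.

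**Figure D1:**
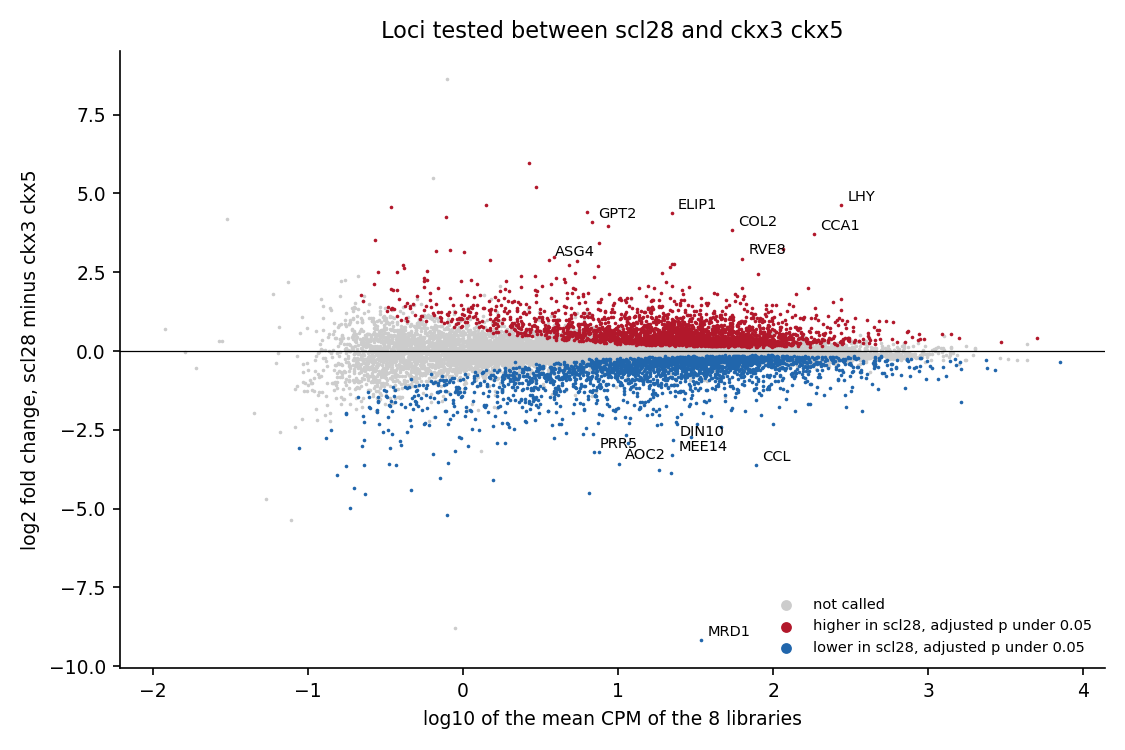
Log2 fold change of scl28 minus ckx3 ckx5 (vertical) against the log10 of the mean CPM of the 8 libraries (horizontal) for the 20947 loci tested, with red for loci higher and blue for loci lower in scl28 at an adjusted p under 0.05 and grey for the rest. Clock and light genes such as LHY and COL2 lie at the top among well expressed loci, and MRD1 stands alone at the bottom at -9.16.

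The 8 libraries held 27866386 to 36735056 counts. The first principal component, with 55.39% of the variance of log2 CPM, separated the genotypes (31.56 to 35.3 in scl28, -36.58 to -30.82 in ckx3 ckx5), and the second (12.43%) set scl28 replicate 2 at -31.55 against scl28 replicate 4 at 23.52. Library pairs of a group correlated at 0.984 to 0.990 in scl28 and 0.989 to 0.992 in ckx3 ckx5, and with a chi-square of 4.76 to 28.7 per locus none of these pairs agreed within sampling noise. Genes of the labelled tissue were present, with the 19 members of the meristem and boundary list summing to 645 to 819 CPM in scl28 and 574 to 635 CPM in ckx3 ckx5. Genes of the leaf, xylem and root marker lists were detected too, the leaf list being genes of photosynthesis. Whether these transcripts came from other tissue was not tested. The 16 leaf markers summed to 20275 to 22961 CPM in scl28, below the 24396 to 27122 CPM in ckx3 ckx5. The xylem markers summed to 211 to 279 CPM in scl28 and 310 to 350.0 CPM in ckx3 ckx5, and the root markers to 101 to 153 CPM in scl28 and 195 to 235 CPM in ckx3 ckx5. Nearly all of the root sum was BGLU23, while the root hair genes RHD6, EXPA7 and EXPA18 had 1, 5 and 2 counts over the scl28 libraries and 2, 0 and 3 counts over those labelled ckx3 ckx5. Flower organ markers were low in both groups (4.03 to 11.1 CPM in scl28, 4.12 to 16.4 CPM in ckx3 ckx5). Leaf, xylem and root sums were thus lower in scl28 without overlap, and the meristem and boundary sum was higher without overlap. The part of these sums in the results below was not tested beyond a fit with a leaf score as covariate. In bulk tissue, fewer cells of a type and less RNA per cell cannot be told apart.

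The targeted genes were read first. SCL28 had 18.4, 15.3, 14.03 and 14.5 CPM in scl28, against 41.4, 41.4, 49.3 and 42.8 CPM in libraries labelled ckx3 ckx5. It was lower in every scl28 library, by 1.49 ± 0.15 on the log2 scale (adjusted p = 1.36e-06), and reads of the locus remained. CKX3 went against its label. It had 0.487, 0.585, 0.400 and 0.440 CPM in scl28, against 1.81, 1.43, 1.96 and 1.72 CPM in libraries labelled ckx3 ckx5, while WT averaged 0.339 ± 0.298 CPM (SD, n = 4). CKX3 reads were thus lower in scl28 than in the libraries of its own mutant (log2 fold change -1.86 ± 0.48, adjusted p = 0.00919). CKX5, whose locus overlaps AT1G75440 in the annotation, had 4.67, 2.99, 2.94 and 3.33 CPM in scl28, against 2.18, 2.47, 2.41 and 4.25 CPM in libraries labelled ckx3 ckx5, and the groups overlapped (0.30 ± 0.33, adjusted p = 0.558). The RNA level therefore does not check the ckx3 ckx5 label, and the libraries are called by it here. In RefSeq's TAIR10.1 annotation SCL28 lies at chr1:23399112-23402176, CKX3 at chr5:23044839-23048292 and CKX5 at chr1:28314458-28318375, all on the minus strand. Within 1 Mb of each of them, 23.3% of 382, 25.6% of 450 and 25.4% of 480 tested loci were called, next to the 24.7% over all loci.

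**Figure D2:**
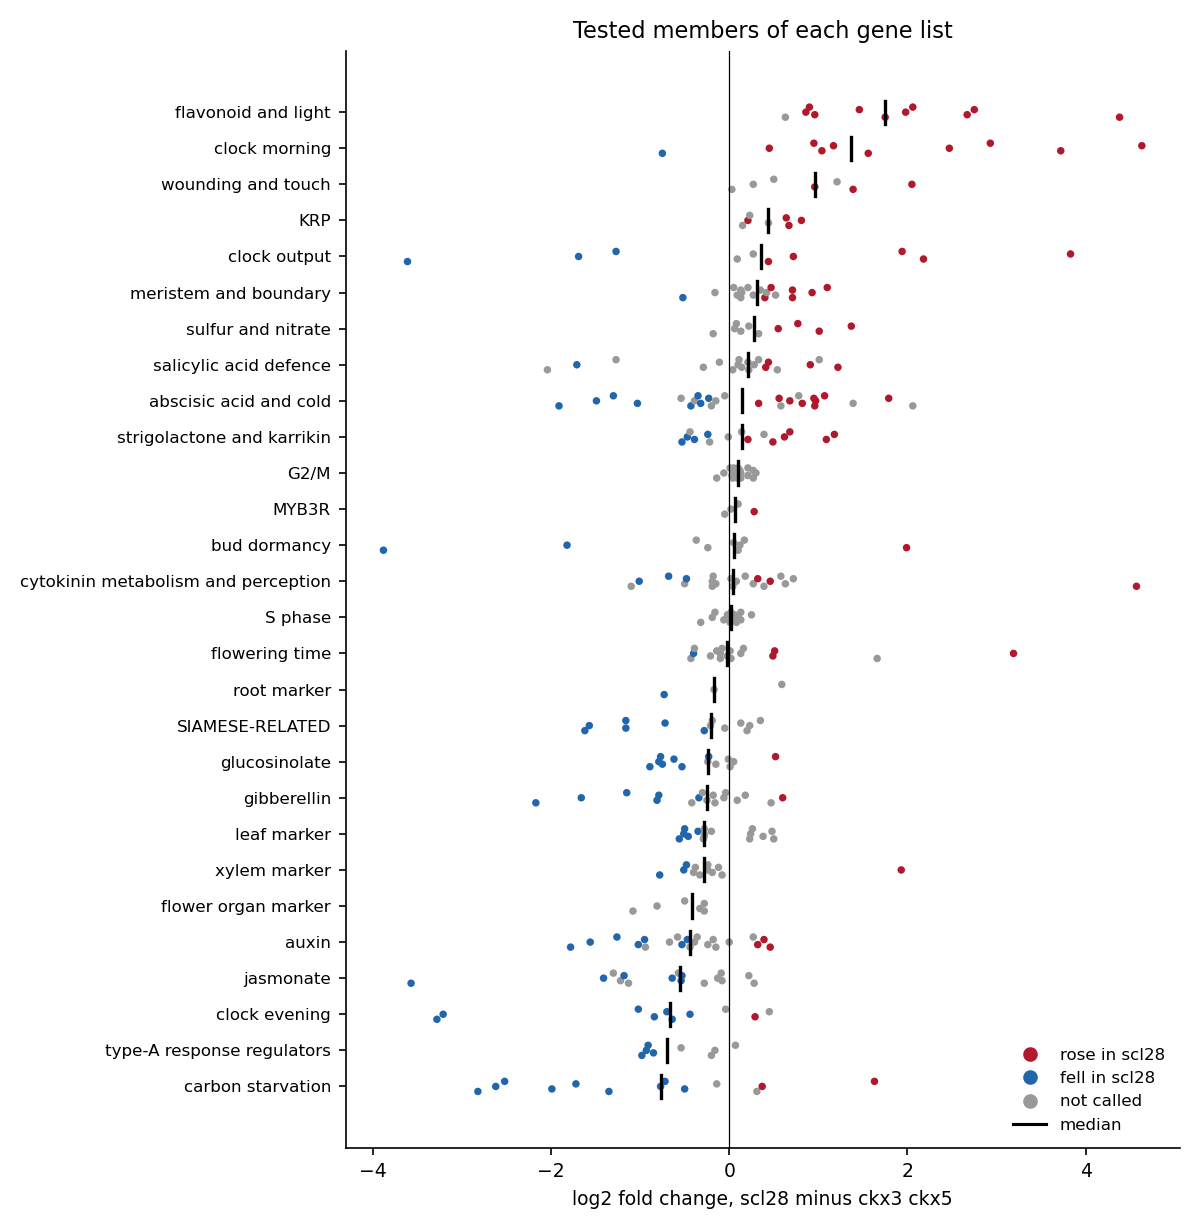
Log2 fold change of scl28 minus ckx3 ckx5 (horizontal) for every tested member of the gene lists, with the targeted genes left out. Lists are sorted by their median (black bar), with red for members that rose, blue for members that fell and grey for members not called. Light and morning clock genes lie furthest right, with medians of 1.75 and 1.37, and carbon starvation genes furthest left, with a median of -0.77, while the medians of the G2/M and S phase lists are 0.10 and 0.02.

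Clock genes held several of the largest differences. Of 10 tested genes of the morning part of the clock, 9 rose and 1 fell, beside 13.1% and 11.5% of all loci. Their median log2 fold change was 1.37 beside -0.004 over all loci. Of 10 genes of midday and evening, 7 fell and 1 rose, with a median of -0.67. LHY, a MYB factor and morning repressor, had 548, 521, 518 and 518 CPM in scl28, against 19.1, 22.2, 19.3 and 24.3 CPM in libraries labelled ckx3 ckx5. CCA1, its close relative, had 364, 331, 336 and 330.4 CPM in scl28, against 24.5, 29.9, 23.7 and 25.2 CPM in libraries labelled ckx3 ckx5. The distance between the groups was many times the spread within either one, with log2 fold changes of 4.63 ± 0.08 for LHY (adjusted p = 3.21e-16) and 3.72 ± 0.08 for CCA1 (adjusted p = 1.63e-15). RVE8, a related MYB factor that activates evening genes, rose by 2.93 ± 0.06 on the same scale (adjusted p = 1.63e-15), to 102 to 119 CPM in scl28 against 13.7 to 15.0 CPM. RVE1, RVE4, PRR9, LNK1 and LNK2 rose by 2.47, 1.04, 1.17, 0.95 and 1.56, and AT5G52660, a homeodomain-like gene of the list, by 0.45. PRR7, a pseudo-response regulator that acts after PRR9 and represses LHY and CCA1, was the member that fell, with 67.7, 67.5, 64.6 and 71.0 CPM in scl28, against 117, 122, 110.2 and 108 CPM in libraries labelled ckx3 ckx5 (-0.75 ± 0.06, adjusted p = 7.53e-08). One harvest window of 2 hours covered all pools, and the part of the hour of harvest in these differences was not tested.

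PRR5, the next pseudo-response regulator of the daily sequence, had 1.53, 1.45, 1.41 and 1.04 CPM in scl28, against 13.04, 13.6, 14.2 and 9.55 CPM in libraries labelled ckx3 ckx5. It was thus low in all scl28 libraries, with a log2 fold change of -3.21 ± 0.18 (adjusted p = 1.33e-09). LUX, the DNA-binding part of the evening complex, had 6.69, 7.30, 7.42 and 6.37 CPM in scl28, against 13.6, 13.1, 14.7 and 14.8 CPM in libraries labelled ckx3 ckx5 (-1.02 ± 0.09, adjusted p = 2.65e-07). GI, a protein of the afternoon that stabilises the photoreceptor ZTL, fell by 0.70 ± 0.11 on the log2 scale. ELF3, the scaffold of the evening complex, fell by 0.64 ± 0.08 and TOC1 by 0.44 ± 0.08, without overlap between the groups. FKF1, a photoreceptor of the late afternoon, was near the limit of detection in scl28, with 15 counts over its libraries against 144 in those labelled ckx3 ckx5, a ratio of ckx3 ckx5 to scl28 of 9.96 with a 95% counting interval of 5.84 to 18.3. Its fitted log2 fold change was -3.28, and -3.95 without scl28 replicate 4. ZTL rose slightly (0.29 ± 0.06, adjusted p = 0.00308). ELF4 and BOA did not pass the test (-0.04 ± 0.31 and 0.45 ± 0.26, adjusted p = 0.944 and 0.231). PRR3 fell by 0.84 ± 0.13 when all transcript models were summed, but stood at 0.04 (adjusted p = 0.98) when its most abundant model alone was used.

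WT lay between the mutants for LHY, CCA1 and RVE8, and nearer to scl28 than to ckx3 ckx5 for PRR5, LUX, GI, TOC1 and ELF3. LHY averaged 526 ± 14.6 CPM in scl28, 21.2 ± 2.48 CPM in libraries labelled ckx3 ckx5, 186 ± 3.52 CPM in d14-7 and 258 ± 1.67 CPM in WT (SD, n = 4 each). PRR5 averaged 1.36 ± 0.218 CPM in scl28, 12.6 ± 2.09 CPM in libraries labelled ckx3 ckx5, 0.691 ± 0.151 CPM in d14-7 and 0.895 ± 0.177 CPM in WT. Fitted against WT, LHY stood at 1.03 in scl28 and at -3.61 in ckx3 ckx5, and PRR5 at 0.58 in scl28 and 3.80 in ckx3 ckx5. Both contrasts use the same WT libraries.

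**Figure D3:**
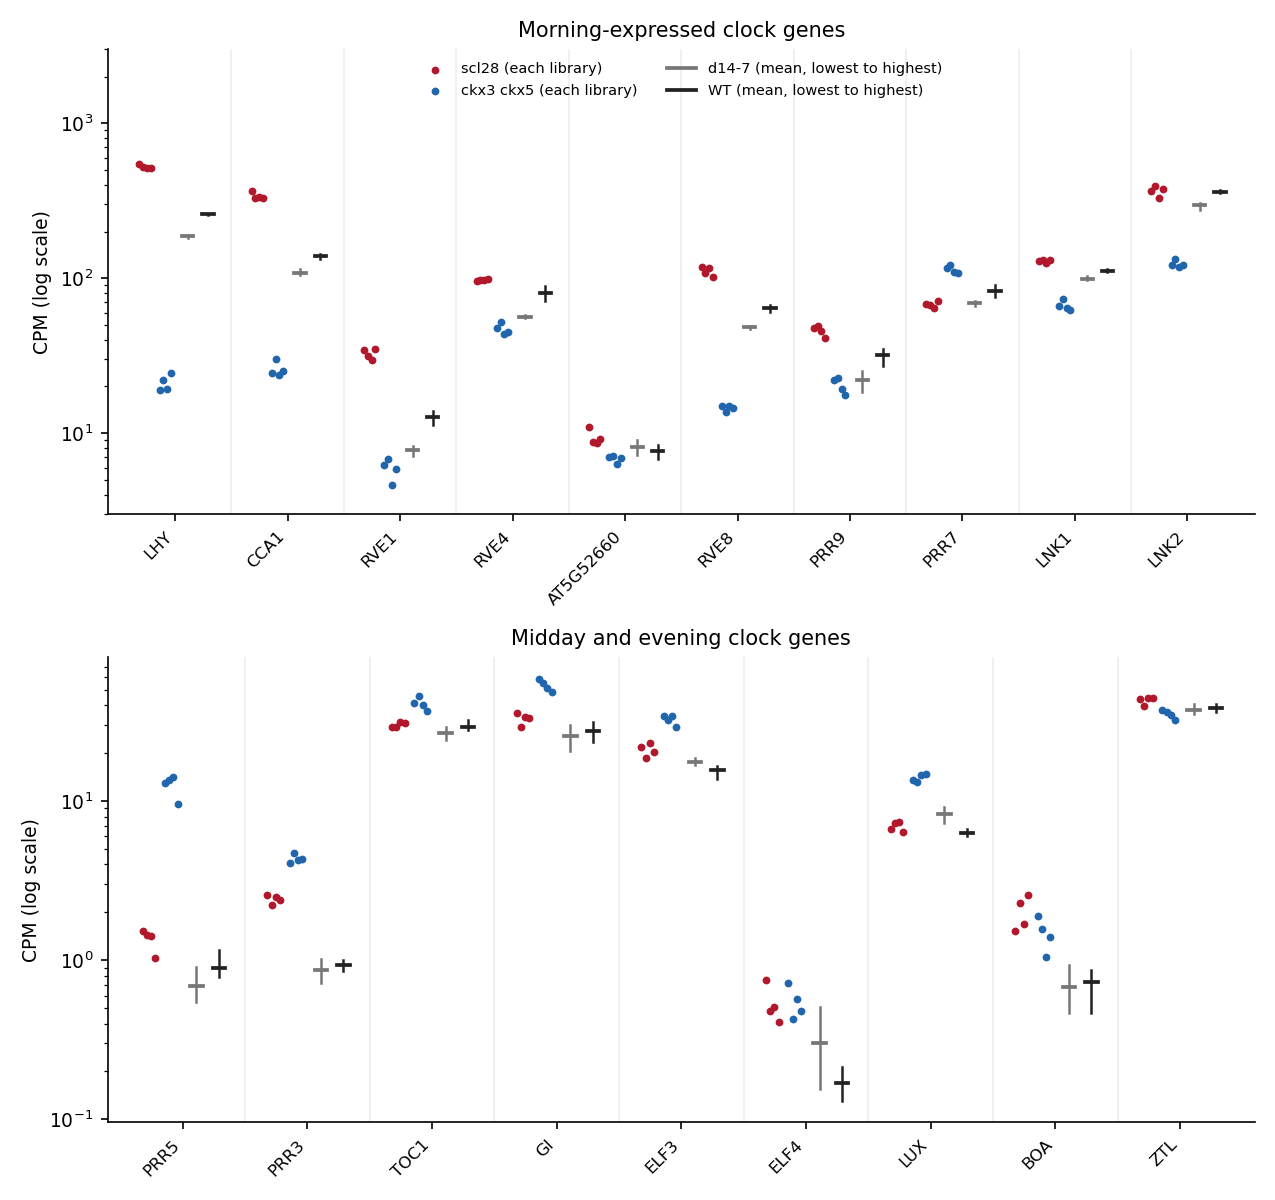
CPM on a log scale of 10 morning clock genes (top) and 9 midday and evening clock genes (bottom), with red points for each scl28 library, blue points for each library labelled ckx3 ckx5, and grey and black bars for the mean and the lowest to highest library of d14-7 and WT. LHY, CCA1 and RVE8 are highest in scl28 and lowest in ckx3 ckx5 with WT between them, while PRR5 and LUX are highest in ckx3 ckx5 by group mean.

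Genes known as clock outputs split in both directions, with 5 of 10 rising and 3 falling, beside 13.1% and 11.5% of all loci. CCL, a rhythmic gene of unknown function, had 11.3, 11.6, 11.0 and 13.1 CPM in scl28, against 141, 177, 153 and 101 CPM in libraries labelled ckx3 ckx5 (-3.61 ± 0.24, adjusted p = 1.41e-08). GRP7, an RNA-binding protein that oscillates with an evening peak, had 192, 182, 198 and 173 CPM in scl28, against 413, 456, 438 and 489.6 CPM in libraries labelled ckx3 ckx5 (-1.27 ± 0.08, adjusted p = 1.07e-08). Its paralogue GRP8 fell by 1.69 ± 0.07. COL2, a B-box protein related to CONSTANS, moved the other way, with 106, 114, 97.9 and 87.4 CPM in scl28, against 7.47, 8.06, 6.74 and 6.29 CPM in libraries labelled ckx3 ckx5 (3.83 ± 0.11, adjusted p = 1.61e-13). Its locus overlaps AT3G02370 and AT3G02390 in the annotation. COL1, a close relative, and CDF2, a repressor of CO, rose by 2.18 ± 0.09 and 1.94 ± 0.12. CO itself and CDF3 did not pass the test (0.27 ± 0.12 and 0.09 ± 0.06, adjusted p = 0.105 and 0.317).

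Short motifs through which the clock and light are known to act were looked for in the sequence before these genes. The 250 bases before the annotated gene start were read from RefSeq's TAIR10.1 genome, in which 20806 tested loci had such a window, and 6 motifs were searched on both strands. The evening element (AAAATATCT), bound by CCA1, LHY and the RVE factors, was in 2.5% of all windows, in 2.5% of those of the 439 loci at least 2-fold higher in scl28, and in 11.4% (58) of those of the 508 loci at least 2-fold lower in scl28. The G-box (CACGTG), bound by light factors such as HY5, was in 7.3% of all windows, in 15.5% (68) of the higher set and in 7.3% of the lower set. The CCA1-binding site (AAAAATCT) was in 6.7% of all windows, 4.6% of the higher and 4.9% of the lower set. The core of the mitosis-specific activator element (AACGG), through which MYB3R factors act, was in 21.8% of all windows, 19.1% of the higher and 16.9% of the lower set. The W-box in its C form (TTGACC) was in 12.0%, 11.4% and 10.2% of these sets, and in its T form (TTGACT) in 18.7%, 16.4% and 22.2%. Among the lists, 5 of 10 evening genes and none of 10 morning genes held the evening element. The G-box was held by 5 of 10 morning genes and 2 of 10 evening genes. These matches are descriptions of the letters in a window and not of binding.

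Windows of 3 loci that fell and hold the evening element, and of the morning repressors LHY and CCA1, which hold the G-box, are shown 5′ to 3′ with those motifs in capitals. PRR5 (chr5:8358547-8358796, minus strand) has its element starting 187 bases before the gene start, CCL (chr3:9827432-9827681, plus strand) at 93 bases, and GRP7 (chr2:9266558-9266807, minus strand) has 3 of them, at 76, 55 and 31 bases. LHY (chr1:37872-38121, minus strand) has its G-box at 80 bases and CCA1 (chr2:19245341-19245590, plus strand) at 193 bases. In these 5 windows no motif overlapped another.
PRR5: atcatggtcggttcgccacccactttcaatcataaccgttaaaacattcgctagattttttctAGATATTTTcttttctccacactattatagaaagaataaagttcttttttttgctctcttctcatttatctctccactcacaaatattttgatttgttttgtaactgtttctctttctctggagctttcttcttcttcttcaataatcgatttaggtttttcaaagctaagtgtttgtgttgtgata
CCL: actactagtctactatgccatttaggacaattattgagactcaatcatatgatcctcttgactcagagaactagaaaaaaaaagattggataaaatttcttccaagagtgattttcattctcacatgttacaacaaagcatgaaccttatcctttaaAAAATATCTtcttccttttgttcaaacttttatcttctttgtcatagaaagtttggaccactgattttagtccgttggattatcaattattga
GRP7: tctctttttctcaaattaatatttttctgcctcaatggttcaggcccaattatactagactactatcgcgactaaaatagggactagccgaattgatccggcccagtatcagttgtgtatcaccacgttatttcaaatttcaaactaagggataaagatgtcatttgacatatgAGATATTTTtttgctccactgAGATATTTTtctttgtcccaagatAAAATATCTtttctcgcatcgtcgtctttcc
LHY: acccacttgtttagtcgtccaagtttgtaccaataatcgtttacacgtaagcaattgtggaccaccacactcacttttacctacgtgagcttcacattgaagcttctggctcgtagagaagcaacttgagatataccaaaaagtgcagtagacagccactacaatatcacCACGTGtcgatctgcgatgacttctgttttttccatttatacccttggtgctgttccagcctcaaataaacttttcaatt
CCA1: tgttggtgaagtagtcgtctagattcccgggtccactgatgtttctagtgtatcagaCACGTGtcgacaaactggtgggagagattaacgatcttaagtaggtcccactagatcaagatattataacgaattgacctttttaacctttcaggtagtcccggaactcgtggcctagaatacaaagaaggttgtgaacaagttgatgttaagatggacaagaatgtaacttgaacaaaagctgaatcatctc
There were exceptions for both motifs. COL2 rose in scl28 with an evening element in its window, as did GPT2 and FLS1, named below. GI fell with none of the 6 motifs in its window. PRR7, the morning gene that fell, and LUX hold a G-box, as do ASN1 and DIN11, starvation genes named below that fell.

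Light-induced and flavonoid genes were higher in scl28 almost throughout. Of 11 tested members 10 rose, beside 13.1% of all loci that rose, with a median log2 fold change of 1.75. HY5, a bZIP factor that drives light responses, had 36.4, 42.2, 35.7 and 29.8 CPM in scl28, against 8.38, 9.52, 7.92 and 8.72 CPM in libraries labelled ckx3 ckx5 (2.06 ± 0.10, adjusted p = 4.89e-10). Its homologue HYH had 42.6, 44.1, 37.7 and 31.0 CPM in scl28, against 4.51, 7.34, 5.90 and 5.40 CPM (2.75 ± 0.16, adjusted p = 4.55e-09). Both were several-fold higher in every scl28 library. In the flavonoid pathway, CHS, TT5, F3H, FLS1, DFR and LDOX rose by 0.90, 1.46, 1.98, 1.75, 0.96 and 0.86, so that enzymes from the first to the late steps moved together. F3H, flavanone 3-hydroxylase, had 249, 305, 279 and 238 CPM in scl28, against 76.8, 52.2, 83.0 and 58.5 CPM in libraries labelled ckx3 ckx5 (adjusted p = 2.12e-07). PAP1, a MYB activator of anthocyanin synthesis, did not pass the test (0.63 ± 0.24, adjusted p = 0.0691).

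ELIP1 and ELIP2 code for early light-induced proteins, which protect the photosynthetic apparatus in bright light. ELIP2 had 40.0, 39.2, 40.1 and 31.3 CPM in scl28, against 6.32, 5.34, 6.02 and 6.003 CPM in libraries labelled ckx3 ckx5 (2.67 ± 0.13, adjusted p = 5.05e-10). ELIP1 varied far more among the scl28 libraries, with 62.7, 56.9, 34.1 and 15.6 CPM, against 1.81, 3.47, 2.11 and 0.798 CPM in libraries labelled ckx3 ckx5 (4.38 ± 0.88, adjusted p = 0.00193). The genes are similar in sequence, and reads that fit both may have been split between them. BBX32, a B-box protein of light signalling whose locus overlaps AT3G21140, rose by 3.97 ± 0.17 and GPT2, a glucose-phosphate transporter of plastids that is induced by light and sugar, by 4.08 ± 0.49. Against WT, ELIP1 stood at 0.78 in scl28 and -3.60 in ckx3 ckx5, and BBX32 at 0.99 in scl28 and -2.98 in ckx3 ckx5. For these genes ckx3 ckx5 was thus further from WT, while GPT2 stood at 2.29 in scl28 and -1.79 in ckx3 ckx5. ELIP1 ran from 29.8 to 122.3 CPM in d14-7 and from 3.93 to 49.4 CPM in WT. Leaf photosynthesis genes were not called higher along with the light-induced genes. Of 16 such markers 5 fell, beside 11.5% of all loci, and the others were not called. Those that fell included PSAF and LHCB4.1, subunits of photosystem I and of the light-harvesting antenna, with log2 fold changes of -0.51 ± 0.11 and -0.50 ± 0.11 (adjusted p = 0.00263 and 0.00292). In the 8 libraries fitted alone, 5 leaf markers rose and 9 fell, and without scl28 replicate 4 there was 1 that rose. DESeq2 called 2 leaf markers higher and limma-voom 1, and each called 5 lower.

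Genes of the cell cycle itself were not called between the mutants. Of 22 tested G2/M genes, 0 were called by edgeR, DESeq2 or limma-voom, 1 had an unadjusted p under 0.05, and their median log2 fold change was 0.10. The fitted value was positive for 20 of them and negative for 2, a lean to 1 side that was not tested. Of 15 S phase genes, 0 were called by any of these tools and 0 had an unadjusted p under 0.05, with a median of 0.02. KN, the syntaxin of the dividing cell plate, had 125, 133, 113 and 104 CPM in scl28, against 104, 109, 119 and 111 CPM in libraries labelled ckx3 ckx5, with overlapping groups. MCM5, a subunit of the replicative helicase, had 64.0, 70.5, 58.7 and 52.3 CPM in scl28, against 56.0, 55.9, 58.5 and 54.5 CPM in libraries labelled ckx3 ckx5. The widest fitted differences of the G2/M list were 0.30 ± 0.15 for AUR2, a mitotic kinase, and -0.14 ± 0.12 for CYCB1;3, a mitotic cyclin. A fit on the 8 libraries alone, and one with the leaf score, called 2 G2/M genes upward. Among the MYB3R factors upstream of SCL28, MYB3R1, MYB3R4 and MYB3R5 did not pass the test. MYB3R3 rose by 0.28 ± 0.08 (adjusted p = 0.0209), a call that ended without ckx3 ckx5 replicate 1 (adjusted p = 0.0632), ckx3 ckx5 replicate 3 (0.057) or scl28 replicate 3 (0.0689). With the most abundant model of each locus MYB3R3 stood at 0.08 (adjusted p = 0.872).

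The CDK inhibitor genes that were called fell among the SIAMESE-RELATED genes and rose among the KRP genes. Of 13 tested SIAMESE-RELATED genes 6 fell and the others were not called, beside 11.5% of all loci that fell, and of 7 KRP genes 4 rose and the others were not called, beside 13.1% that rose. DESeq2 called 6 SIAMESE-RELATED genes lower and 1 higher, and 5 KRP genes higher. With limma-voom the counts were those of edgeR. AT1G51355, annotated as an SMR3-like inhibitor, had 1.36, 1.07, 0.934 and 1.19 CPM in scl28, against 3.77, 3.44, 3.49 and 3.26 CPM in libraries labelled ckx3 ckx5 (-1.62 ± 0.17, adjusted p = 1.92e-06). AT1G08180, annotated as a CDK inhibitor, had 3.54, 2.96, 3.02 and 3.77 CPM in scl28, against 7.88, 7.84, 6.80 and 7.15 CPM in libraries labelled ckx3 ckx5 (-1.16 ± 0.13, adjusted p = 5.67e-06). AT5G59360, uncharacterized in RefSeq, AT5G40460, SMR3-like, and AT2G28870, SMR1-like, fell by 1.57 ± 0.18, 1.16 ± 0.21 and 0.72 ± 0.17. All 5 were lower in every scl28 library than in any library labelled ckx3 ckx5.

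Against WT, AT1G51355 stood at -1.34 in scl28 and 0.28 in ckx3 ckx5, AT5G59360 at -1.21 in scl28 and 0.36 in ckx3 ckx5, and AT1G08180 at -1.59 in scl28 and -0.43 in ckx3 ckx5. The founding member SIM had 16.9, 17.1, 22.0 and 20.3 CPM in scl28, against 23.0, 22.7, 20.4 and 21.0 CPM in libraries labelled ckx3 ckx5, with overlap (-0.19 ± 0.11, adjusted p = 0.214). SMR1 fell by 0.28 ± 0.10 (adjusted p = 0.0447), but its groups overlapped and the call ended in 9 of the 18 alternative settings, among them without ckx3 ckx5 replicate 1, 2 or 4 (adjusted p = 0.0869, 0.103 and 0.0996) and without scl28 replicate 1, 2 or 3 (0.0754, 0.124 and 0.0978). AT5G02420, SMR4, SMR7, AT1G10690, AT2G28330 and AT2G37610 were not called, with log2 fold changes between -0.21 and 0.35.

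In the KRP family, whose proteins inhibit CDK at the start of the cycle, KRP2 had 49.6, 59.7, 56.7 and 60.1 CPM in scl28, against 35.4, 39.1, 31.1 and 36.2 CPM in libraries labelled ckx3 ckx5 (0.67 ± 0.12, adjusted p = 0.000366). KRP5 had 10.9, 9.60, 9.93 and 9.61 CPM in scl28, against 7.10, 6.12, 6.17 and 6.23 CPM in libraries labelled ckx3 ckx5 (0.64 ± 0.10, adjusted p = 0.000123). Both were higher in all scl28 libraries. The calls of KRP1 (0.81 ± 0.23, adjusted p = 0.0162) and KRP4 (0.21 ± 0.07, adjusted p = 0.0341) each ended without single libraries. For KRP1 these were ckx3 ckx5 replicates 3 and 4 (adjusted p = 0.0586 and 0.0516), and for KRP4 ckx3 ckx5 replicate 4 (0.119) and scl28 replicates 3 and 4 (0.105 and 0.0541), so that without ckx3 ckx5 replicate 4 the list had 2 risers. The KRP4 call also ended with upper-quartile factors (0.0519), no filter on low counts (0.0685) and the 8 libraries alone (0.0617). It ended as well with a replicate block (0.0583) and with the most abundant model (0.204).

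**Figure D4:**
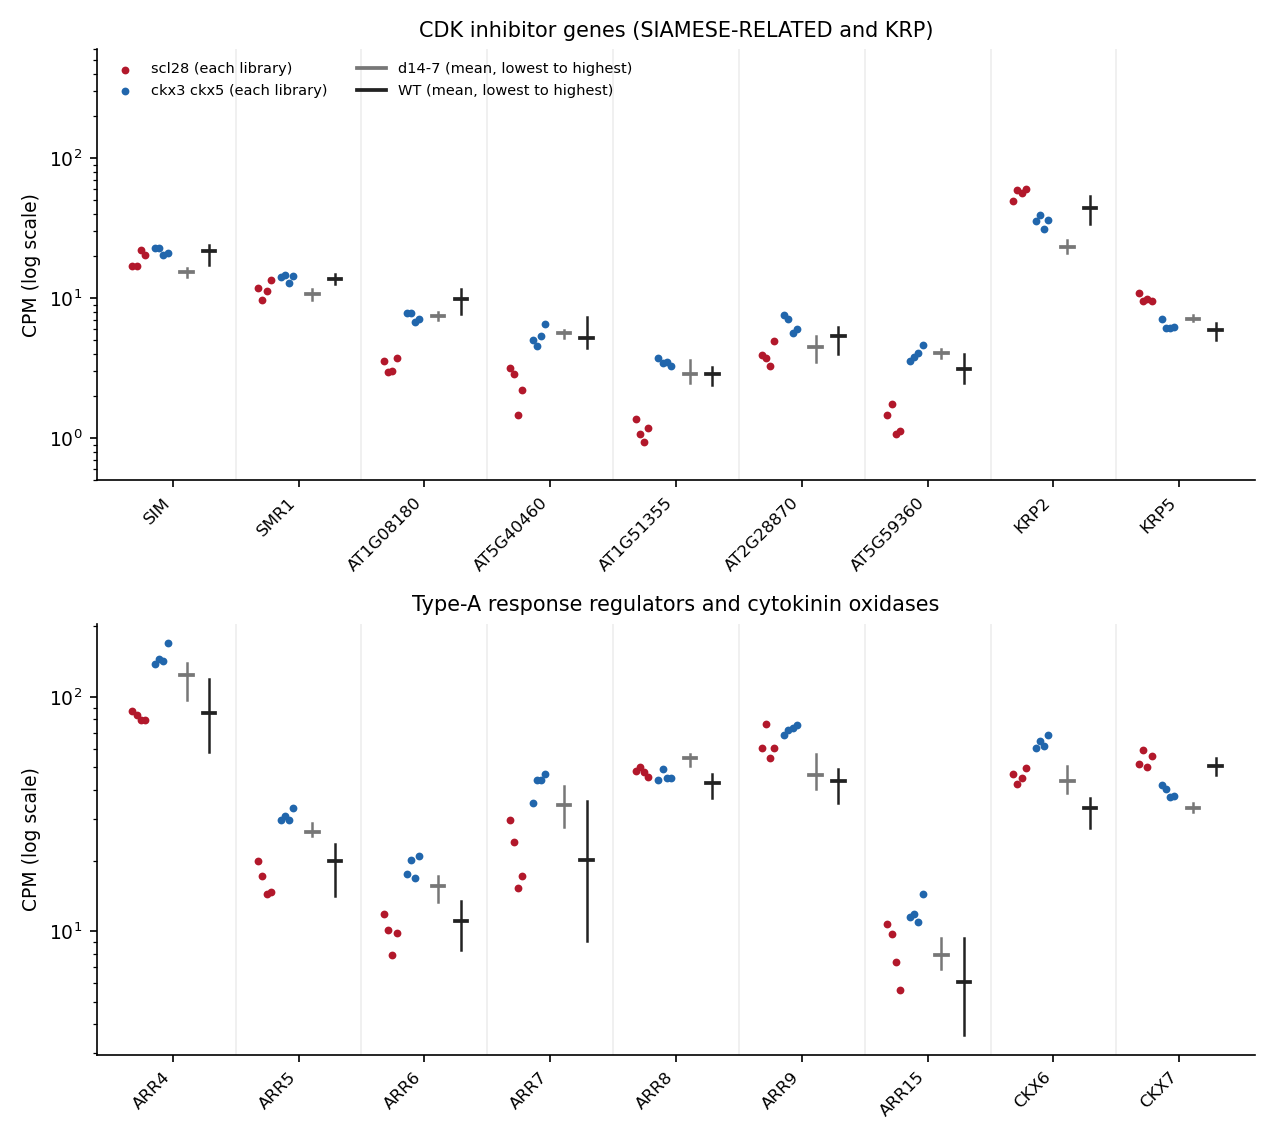
CPM on a log scale of CDK inhibitor genes (top) and of type-A response regulators with CKX6 and CKX7 (bottom), with red points for each scl28 library, blue points for each library labelled ckx3 ckx5, and grey and black bars for the mean and the lowest to highest library of d14-7 and WT. AT1G08180, AT5G40460, AT1G51355 and AT5G59360 are lowest in scl28 by group mean, and ARR4 to ARR6 are highest in ckx3 ckx5 by group mean.

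Several genes that report cytokinin fell in scl28. Of 8 tested type-A response regulators 4 fell and the others were not called, beside 11.5% of all loci that fell, with a median log2 fold change of -0.70. ARR5 had 19.9, 17.2, 14.4 and 14.6 CPM in scl28, against 29.9, 30.9, 29.7 and 33.4 CPM in libraries labelled ckx3 ckx5 (-0.91 ± 0.13, adjusted p = 6.63e-05). ARR6 had 11.8, 10.12, 7.90 and 9.80 CPM in scl28, against 17.5, 20.12, 16.9 and 20.8 CPM in libraries labelled ckx3 ckx5 (-0.93 ± 0.16, adjusted p = 0.00032). ARR4 fell by 0.85 ± 0.17 (adjusted p = 0.00109). The groups did not overlap for these 3 genes. Set beside WT, ARR4, ARR5 and ARR6 stood at -0.05, -0.27 and -0.15 in scl28 and at 0.80, 0.64 and 0.78 in ckx3 ckx5. ARR7 also fell (-0.98 ± 0.31, adjusted p = 0.0289), a call lost without ckx3 ckx5 replicate 2, 3 or 4 (adjusted p = 0.0552, 0.0595 and 0.0662) or scl28 replicate 3 or 4 (0.0828 and 0.0795). ARR8, ARR9, ARR15 and ARR16 were not called (0.07, -0.20, -0.54 and -0.16), and ARR3 and ARR17 were too low to be tested.

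Of 21 tested genes of cytokinin synthesis, breakdown and perception 3 rose and 3 fell (14.3% each), with a median of 0.04. These shares are near the 13.1% of all loci that rose and the 11.5% that fell. Among the oxidases, CKX6 had 46.9, 42.4, 44.9 and 49.6 CPM in scl28, against 60.5, 64.5, 61.9 and 68.7 CPM in libraries labelled ckx3 ckx5 (-0.48 ± 0.09, adjusted p = 0.000988). CKX7, the cytosolic oxidase, had 51.8, 59.3, 50.2 and 55.9 CPM in scl28, against 42.2, 40.5, 37.2 and 37.8 CPM in libraries labelled ckx3 ckx5 (0.46 ± 0.07, adjusted p = 8.48e-05). These family members thus differed in opposite directions without overlap. IPT7, an enzyme of the first step of cytokinin synthesis, was scarce, with 86 counts over the scl28 libraries and 3 over those labelled ckx3 ckx5, a ratio of 27.6 with a 95% counting interval of 9.15 to 137. IPT7 averaged 0.660 ± 0.134 CPM in scl28, 0.0243 ± 0.0164 CPM in libraries labelled ckx3 ckx5 and, in WT, 0.564 ± 0.257 CPM. The other tested IPT genes were not called. The receptor gene AHK3 rose by 0.32 ± 0.07 (adjusted p = 0.00451).

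Strigolactone and karrikin genes changed on both sides, with 6 of 15 rising and 4 falling, beside 13.1% and 11.5% of all loci. Their median was 0.14. MAX1, a cytochrome P450 of strigolactone synthesis, had 65.9, 65.7, 71.2 and 66.8 CPM in scl28, against 32.2, 31.3, 28.6 and 27.2 CPM in libraries labelled ckx3 ckx5 (1.18 ± 0.13, adjusted p = 3.31e-06). D14, the receptor, had 37.5, 40.2, 40.1 and 40.1 CPM in scl28, against 28.5, 29.9, 28.2 and 25.9 CPM in libraries labelled ckx3 ckx5 (0.49 ± 0.07, adjusted p = 4e-05). Both were higher in all scl28 libraries, and WT averaged 69.5 ± 16.9 CPM of MAX1 and 41.2 ± 2.08 CPM of D14, close to scl28. Of the SMXL repressors that the receptor targets, SMXL6 rose by 0.62 ± 0.08, SMXL8 fell by 0.47 ± 0.10 and SMXL7 was not called (-0.01 ± 0.09).

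BRC1, the TCP factor that holds axillary buds dormant, did not differ beyond its spread, with 9.90, 5.44, 9.26 and 9.36 CPM in scl28, against 12.3, 12.3, 12.5 and 6.93 CPM in libraries labelled ckx3 ckx5 (-0.37 ± 0.19, adjusted p = 0.175). A single library of each group was low for it. Its downstream homeodomain genes HB21, HB40 and HB53 and NCED3, an enzyme of abscisic acid synthesis, were not called either, with log2 fold changes of 0.10 ± 0.29, 0.17 ± 0.17, 0.12 ± 0.27 and 0.05 ± 0.34. BRC1 averaged 8.49 ± 2.05 CPM in scl28, 11.0 ± 2.72 CPM in libraries labelled ckx3 ckx5, 0.373 ± 0.0878 CPM in d14-7 and 6.99 ± 0.721 CPM in WT.

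The other dormancy-associated genes DRM1, DRM2 and HIS1-3 did separate the mutants, but not in 1 direction. DRM2 had 2.79, 3.20, 2.24 and 2.98 CPM in scl28, against 42.5, 57.1, 40.1 and 24.8 CPM in libraries labelled ckx3 ckx5 (-3.88 ± 0.34, adjusted p = 3.55e-07). DRM1 had 22.0, 20.7, 25.9 and 27.2 CPM in scl28, against 91.4, 99.3, 82.2 and 65.1 CPM in libraries labelled ckx3 ckx5 (-1.82 ± 0.25, adjusted p = 4.13e-05), and stood at -2.52 when its most abundant model alone was used. These markers of resting buds were thus lower in scl28. HIS1-3, a linker histone of stressed and resting tissue, had 6.07, 10.6, 8.91 and 7.29 CPM in scl28, against 2.40, 3.51, 1.45 and 0.958 CPM in libraries labelled ckx3 ckx5 (1.99 ± 0.41, adjusted p = 0.00166). DRM2 against WT stood at -1.89 in scl28 and 1.99 in ckx3 ckx5, and HIS1-3 at 0.06 in scl28 and -1.94 in ckx3 ckx5.

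Of 13 carbon starvation genes 9 fell and 2 rose, beside 11.5% and 13.1% of all loci, with a median of -0.77. ASN1, asparagine synthetase induced by darkness and low sugar, had 7.73, 7.30, 12.4 and 13.4 CPM in scl28, against 44.6, 41.9, 36.8 and 39.3 CPM in libraries labelled ckx3 ckx5 (-1.99 ± 0.31, adjusted p = 0.000166). DIN10, a raffinose synthase family gene induced in the dark whose locus overlaps AT5G20260, had 5.10, 4.72, 5.18 and 7.47 CPM in scl28, against 39.3, 34.8, 35.4 and 49.2 CPM in libraries labelled ckx3 ckx5 (-2.82 ± 0.26, adjusted p = 6.89e-07). Neither gene overlapped between the groups. TPS8, TPS9, TPS10 and TPS11, trehalose phosphate synthase-like genes, fell by 0.77, 0.72, 0.50 and 1.35, while TPS5 rose by 0.37 ± 0.12 (adjusted p = 0.0334). The TPS5 call ended without ckx3 ckx5 replicate 2, 3 or 4, without scl28 replicate 1, 3 or 4 and with the replicate block (adjusted p of 0.0516 to 0.109), and without each of these libraries 1 member rose. That member was EXL1, a gene of the EXORDIUM family (1.63 ± 0.37, adjusted p = 0.00391). DIN10 averaged 5.62 ± 1.26 CPM in scl28, 39.7 ± 6.66 CPM in libraries labelled ckx3 ckx5 and, in WT, 8.43 ± 3.37 CPM. ASN1 averaged 10.2 ± 3.13 CPM in scl28, 40.7 ± 3.38 CPM in libraries labelled ckx3 ckx5 and, in WT, 37.0 ± 19.2 CPM, so that WT lay nearer to scl28 for DIN10 and nearer to ckx3 ckx5 for ASN1.

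**Figure D5:**
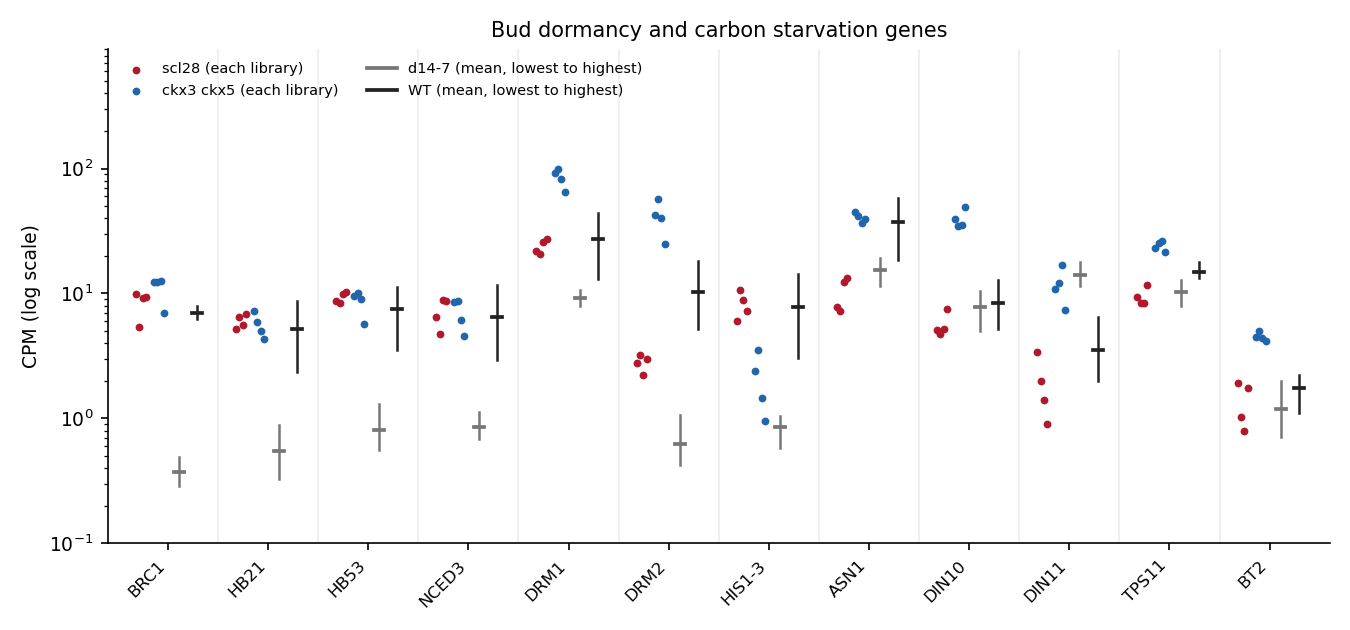
CPM on a log scale of BRC1, its downstream genes, dormancy-associated genes and carbon starvation genes, with red points for each scl28 library, blue points for each library labelled ckx3 ckx5, and grey and black bars for the mean and the lowest to highest library of d14-7 and WT. BRC1, HB21, HB53 and NCED3 overlap between scl28 and ckx3 ckx5, while DRM1, DRM2, ASN1, DIN10, DIN11, TPS11 and BT2 are lower in every scl28 library and HIS1-3 is higher.

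Of 21 tested auxin genes 7 fell and 3 rose (median -0.44), and of 17 gibberellin genes 6 fell and 1 rose (median -0.25), beside 11.5% of all loci that fell and 13.1% that rose. The auxin-induced IAA19 had 14.3, 15.6, 16.5 and 24.6 CPM in scl28, against 38.1, 36.7, 40.3 and 55.4 CPM in libraries labelled ckx3 ckx5 (-1.26 ± 0.22, adjusted p = 0.000463). GH3.3, an enzyme that conjugates auxin, had 27.6, 27.8, 29.9 and 30.0 CPM in scl28, against 56.2, 49.8, 64.9 and 52.0 CPM in libraries labelled ckx3 ckx5 (-0.95 ± 0.13, adjusted p = 2.8e-05). PIN3, an auxin efflux carrier gene, rose by 0.46 ± 0.11. GASA6, a gibberellin-induced peptide gene, had 19.2, 15.5, 13.2 and 13.8 CPM in scl28, against 44.4, 50.5, 38.9 and 60.5 CPM in libraries labelled ckx3 ckx5 (-1.66 ± 0.16, adjusted p = 9.11e-07). GA2OX1, an enzyme that inactivates gibberellin, fell by 2.17 ± 0.22 (adjusted p = 1.57e-06). RGL2, a DELLA repressor of gibberellin response, was the member that rose (0.60 ± 0.13, adjusted p = 0.0025), and without scl28 replicate 2 there were 2.

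Abscisic acid and cold genes divided within the list, with 9 of 26 rising and 8 falling, beside 13.1% and 11.5% of all loci. The risers included HB12, ABF3 and HAB1. HB12, a homeodomain factor induced by abscisic acid, had 67.7, 73.2, 68.0 and 60.6 CPM in scl28, against 19.3, 23.6, 17.8 and 17.0 CPM in libraries labelled ckx3 ckx5 (1.79 ± 0.13, adjusted p = 5.06e-08). ABF3, a bZIP factor of the same pathway, and HAB1, a phosphatase that restrains it, rose by 0.95 ± 0.12 and 1.07 ± 0.07. The fallers included dehydrins, with LTI30 at 1.30, 1.86, 1.57 and 1.16 CPM in scl28, against 5.67, 5.44, 6.11 and 5.01 CPM in libraries labelled ckx3 ckx5 (-1.91 ± 0.19, adjusted p = 1.04e-06), and COR47 at -1.03 ± 0.14. COR6.6, which is nearly identical to KIN1 and may share its reads, rose by 0.96 ± 0.17. The count of fallers was 5 without ckx3 ckx5 replicate 2 and 5 without scl28 replicate 4.

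Defence pathways gave smaller lists of changes. Of 19 tested salicylic acid genes 4 rose and 1 fell, beside 13.1% and 11.5% of all loci. The risers included the regulator WRKY70, with 93.3, 98.3, 107 and 105 CPM in scl28 against 43.6, 42.1, 47.6 and 39.9 CPM in libraries labelled ckx3 ckx5 (1.22 ± 0.11, adjusted p = 3.53e-07). The regulator WRKY54 rose by 0.91 ± 0.11. PR1, the classical marker of the pathway, was the member that fell, with 7.24, 6.78, 5.87 and 3.80 CPM in scl28, against 22.6, 20.9, 10.2 and 23.6 CPM in libraries labelled ckx3 ckx5 (-1.71 ± 0.42, adjusted p = 0.00695). Both mutants were far below WT for PR1, which averaged 136 ± 69.5 CPM. A further member was called lower without ckx3 ckx5 replicate 3 and without scl28 replicate 1, which makes 2 fallers. Of 16 jasmonate genes 6 fell, beside 11.5% of all loci, and the others were not called. VSP2, a storage protein induced by jasmonate, averaged 431 ± 67.9 CPM in scl28 and 979.5 ± 492.5 CPM in libraries labelled ckx3 ckx5 (-1.18 ± 0.26, adjusted p = 0.00253). AOC2, an enzyme of jasmonate synthesis, had 1.82, 1.93, 1.39 and 1.16 CPM in scl28, against 15.4, 15.8, 33.5 and 9.74 CPM in libraries labelled ckx3 ckx5 (-3.57 ± 0.61, adjusted p = 0.000506). AOC2 and VSP2 have close copies, AOC1 and VSP1, with which they may share reads, and replicate 3 was the highest ckx3 ckx5 library for both.

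Of 13 glucosinolate genes 7 fell and 1 rose, beside 11.5% and 13.1% of all loci. MAM1, an enzyme that lengthens the methionine chain, had 648, 640, 698 and 737 CPM in scl28, against 1327, 1154, 1319 and 1257 CPM in libraries labelled ckx3 ckx5 (-0.89 ± 0.17, adjusted p = 0.000743). CYP79B2, at the entry of the indole branch, fell by 0.79 ± 0.14 and CYP79F1, at that of the aliphatic branch, by 0.77 ± 0.17. CYP79F1 has a near-identical neighbour, CYP79F2, which fell by 0.75 ± 0.16. MYB28, a MYB activator of the aliphatic branch, rose by 0.52 ± 0.13 (adjusted p = 0.00815). Without scl28 replicate 1 the fallers numbered 4. The leaf and xylem marker sums given above were lower in scl28 as well, and their part in this list was not tested.

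Some boundary genes, which mark the borders where axillary meristems form, rose in scl28. Of 18 tested meristem and boundary genes 6 rose and 1 fell, beside 13.1% and 11.5% of all loci, with a median of 0.31. The sum of this list given above was higher in scl28 too, and the part of tissue share in these rises was not tested. CUC3, a NAC factor of boundaries and axillary meristems, had 8.51, 8.02, 7.36 and 7.41 CPM in scl28, against 3.08, 4.01, 4.31 and 3.23 CPM in libraries labelled ckx3 ckx5 (2.14-fold higher, adjusted p = 2.46e-05). RAX2, a MYB factor of axillary meristem initiation, had 7.79, 8.19, 8.11 and 7.57 CPM in scl28, against 3.99, 4.15, 3.64 and 4.82 CPM in libraries labelled ckx3 ckx5 (0.93 ± 0.15, adjusted p = 0.000148). LOB, a further boundary gene, rose by 0.71 ± 0.09. Against WT, CUC3 stood at 1.24 in scl28 and 0.14 in ckx3 ckx5, while RAX2 stood at 0.01 in scl28 and -0.92 in ckx3 ckx5. LAS, CUC1 and CUC2, boundary genes of the same circuit, were not called (0.52 ± 0.27, 0.13 ± 0.19 and 0.09 ± 0.18). The meristem genes STM (0.42 ± 0.15, adjusted p = 0.0501), KNAT1, WUS and CLV1 were not called either. The member that fell, LOF1 (-0.52 ± 0.18, adjusted p = 0.0413), lost its call without ckx3 ckx5 replicate 1, 3 or 4, without scl28 replicate 1, 2 or 3 and in 2 further settings (adjusted p of 0.0607 to 0.148), which left 0 members that fell without any 1 of these libraries.

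Of 17 tested genes of flowering time 3 rose and 1 fell, beside 13.1% and 11.5% of all loci (median -0.02). TSF, a mobile flowering signal related to FT, had 197 counts over the scl28 libraries and 20 over those labelled ckx3 ckx5, a ratio of 9.50 with a 95% counting interval of 5.99 to 15.9 (adjusted p = 0.00175). Its fitted log2 fold change was 3.19, and 3.88 without ckx3 ckx5 replicate 1. AGL24 and SPL4, promoters of flowering, rose by 0.51 ± 0.08 and 0.49 ± 0.12. SOC1, a main integrator of flowering signals, had 41.8, 48.2, 40.6 and 40.0 CPM in scl28, against 40.9, 47.0, 44.8 and 39.7 CPM in libraries labelled ckx3 ckx5, with a difference of -0.02 ± 0.08 (adjusted p = 0.92). AP1, FUL and LFY, which mark the floral transition, overlapped between the groups as well. TFL1, a brake on flowering, fell by 0.40 ± 0.13 (adjusted p = 0.0336) but not without ckx3 ckx5 replicate 1, 2 or 3 (adjusted p = 0.0823, 0.0644 and 0.06) or scl28 replicate 1 or 2 (0.104 and 0.0912). The list had 0 members that fell without ckx3 ckx5 replicate 1 or 2 or scl28 replicate 2, and 2 without scl28 replicate 3.

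Among nutrient genes, NRT1.1, a nitrate transporter and sensor, had 263, 230.2, 288 and 286 CPM in scl28, against 121, 99.1, 76.0 and 117 CPM in libraries labelled ckx3 ckx5 (1.37 ± 0.20, adjusted p = 9.39e-05). APR2, an enzyme of sulfate reduction, rose by 0.77 ± 0.09 (adjusted p = 9.18e-06). Of 10 sulfur and nitrate genes 4 rose, beside 13.1% of all loci. The risers numbered 2 without ckx3 ckx5 replicate 1 and 2 without ckx3 ckx5 replicate 2. The calls lost there were those of APR3 and SDI1, which also ended without scl28 replicate 2 (adjusted p = 0.057 and 0.0697). The SDI1 call ended too without ckx3 ckx5 replicate 4 (0.0739) or scl28 replicate 1 (0.087), and that of APR3 with no filter on low counts (0.0532). Of 7 wounding and touch genes, which respond to handling, 3 rose, beside the same 13.1% of all loci. Without scl28 replicate 2 or with limma-voom 1 rose. TCH2, a calmodulin-like gene induced by touch, had 35.8, 72.2, 29.03 and 41.1 CPM in scl28, against 21.7, 21.8, 22.9 and 25.2 CPM in libraries labelled ckx3 ckx5 (0.96 ± 0.24, adjusted p = 0.00662). Replicate 2 was the highest scl28 library for it.

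MRD1, named for its low level in a mutant that accumulates methionine, stood apart from all other loci. It had 1, 4, 2 and 8 counts in the scl28 libraries, against 2188, 1917, 2195 and 2263 counts in those labelled ckx3 ckx5. The scaled ratio was 592, with a 95% counting interval of 359 to 1058 (adjusted p = 7.1e-16). The fitted log2 fold change was -9.16, and -9.82 without scl28 replicate 4. MRD1 averaged 0.119 ± 0.0994 CPM in scl28, 68.8 ± 2.57 CPM in libraries labelled ckx3 ckx5, 61.4 ± 2.70 CPM in d14-7 and 59.5 ± 3.07 CPM in WT. MRD1 lies at chr1:19963047-19964712 on the minus strand and overlaps HEI10 on the other strand (-1.87 ± 0.13). Strand was not kept by the library kit, and where both loci overlap their reads cannot be told apart. Of the next loci on either side, AT1G53460, MSL4, MUM4 and MPK18 were not called, while AT1G53450 fell by 0.27 ± 0.08 (adjusted p = 0.0204), a call that ended without ckx3 ckx5 replicate 2 or 4 (adjusted p = 0.0734 and 0.0519). No locus met the stricter criterion of at least 1 CPM in every library of 1 group and at most 0.05 CPM in every library of the other.

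Other loci with large falls were MEE14, known from embryo arrest mutants, with 3.73, 3.82, 2.80 and 6.12 CPM in scl28, against 43.0, 44.2, 39.7 and 34.7 CPM in libraries labelled ckx3 ckx5 (-3.30 ± 0.26, adjusted p = 1.04e-07), and Fes1B, a co-chaperone gene, at -3.20 ± 0.28. EXPA8, an expansin that loosens cell walls, had 3.08, 2.51, 1.39 and 3.96 CPM in scl28, against 18.3, 17.3, 18.1 and 28.7 CPM in libraries labelled ckx3 ckx5 (-2.92 ± 0.28, adjusted p = 8.18e-07). For MEE14 and Fes1B the libraries labelled ckx3 ckx5 were the ones away from WT, at 2.60 and 3.05 on the log2 scale, and scl28 stood at -0.69 and -0.15. For EXPA8 scl28 was the one further away, at -2.10, with ckx3 ckx5 at 0.82. ASG4, a MYB-like gene whose locus overlaps AT1G01510, rose by 2.88 ± 0.23 (adjusted p = 1.09e-07). Of 12 tested xylem genes 3 fell and 1 rose, beside 11.5% and 13.1% of all loci, and the fallers numbered 5 without scl28 replicate 4. Those that fell included XCP1, whose locus overlaps AT4G35360, and XCP2, proteases of dying vessel cells, by 0.78 ± 0.08 and 0.48 ± 0.06. None of 6 flower organ genes was called by edgeR, DESeq2 or limma-voom, and none had an unadjusted p under 0.05. Of 3 tested root genes only BGLU23 fell (-0.73 ± 0.15, adjusted p = 0.00161).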

How the data were processed

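RNA of 16 pools was measured by poly(A) sequencing with an unstranded kit, and 8 libraries were compared here. The authors deposited estimated counts for 41671 transcript models as whole numbers, and a normalized signal that was used only to check scaling (98.04% of its ratios to the counts lay within 1% of the library median). TAIR10 and DESeq2 are named, without versions, in the submitters' processing notes. No source used here names the aligner or the counting tool.

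Counts were summed to 33602 loci, filtered with filterByExpr and scaled with TMM factors. All 16 libraries entered 1 model of 4 genotype means in edgeR 4.0.16 (R 4.3.3, quasi-likelihood F test, robust), whose adjusted p uses Benjamini-Hochberg over the 20947 loci tested. The model was tested on simulated data. Alternatives included DESeq2 1.42.0 and limma-voom (limma 3.58.1). Symbols, coordinates and 250-base windows came from RefSeq TAIR10.1, and loci without a RefSeq symbol keep their locus name. Named genes were the targeted genes, the 8 largest rises and 8 largest falls with a symbol, no overlap of CPM and at least 5 CPM in the higher group, up to 4 called members of each list by adjusted p, every tested member of the clock, SIAMESE-RELATED, response regulator and dormancy lists, and loci on in 1 group and off in the other. Other members named in the text illustrate their list and were chosen after their values were seen. Members and lists were chosen with earlier results of these data known. Nothing says that pools were grown separately, so p-values measure the spread between pooled samples. Intervals of count ratios cover counting error only. A listed gene is counted with its list but is not reported here by name.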

Additional observations from a re-analysis of the deposited data

Results flagged for a closer look

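In 276 groups of 4 libraries, the library furthest from the others was far away by Dixon's test at the 95% level in 15 cases, and chance alone gives about 1 in 20 groups. The values below are CPM, each with the nearest other library of its group. Among scl28 libraries, LHY was high in replicate 1 (547.9, nearest 521.1), DIN10 in replicate 4 (7.473, nearest 5.176) and AT1G69570 in replicate 4 (17.8, nearest 13.32). COL1 was low in scl28 replicate 2 (30.56, nearest 34.07), D14 in replicate 1 (37.49, nearest 40.07), ELIP2 in replicate 4 (31.34, nearest 39.17) and BRC1 in replicate 2 (5.438, nearest 9.258).

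Among the libraries labelled ckx3 ckx5, CKX5 was high in replicate 4 (4.247, nearest 2.471), EXPA8 in replicate 4 (28.74, nearest 18.31), KRP5 in replicate 1 (7.098, nearest 6.227), JAZ2 in replicate 3 (62.47, nearest 45.92) and SDI1 in replicate 3 (1.897, nearest 1.022). KRP4 was low in ckx3 ckx5 replicate 4 (15.52, nearest 18.48), as were BRC1 (6.929, nearest 12.27) and HB40 (3.991, nearest 6.713) in the same library.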

How the results depend on the processing

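Over 18 alternative settings the number of loci called ran from 4131 to 6094, next to 5169, and that of loci at least 2-fold higher and lower from 390 to 470 and from 429 to 561. With 1 library left out, the totals ran from 4131 to 4888 (2237 to 2669 higher, 1894 to 2219 lower, and at least 2-fold 390 to 453 higher and 468 to 527 lower). In every setting 3314 loci (64.1% of those called) were called, and 0 of them turned sign. Of 118 called genes that were named by rule, 107 kept their call throughout and 11 lost it somewhere. Other genes named in the text are outside this count, and among them LOF1, TPS5 and AT1G53450 lost calls as given above. PRR3 turned sign with the most abundant model of each locus (0.04), and the cause was not tested. Deviations of libraries with the same replicate number in their titles correlated at 0.052, -0.013, -0.068 and 0.078. The library names carry other numbers. Scl28 replicate 1 and ckx3 ckx5 replicate 2 share one there, as do scl28 replicate 3 and ckx3 ckx5 replicate 4, and these pairs correlated at -0.068 and 0.018. With a replicate block on the title numbers 4884 loci were called, and a block on the library names was not tested. Depth limits loci such as IPT7, TSF and FKF1, for which ratios of summed counts are given.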
